A study of Mus musculus with 18 samples.

Results

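Mitosis and G2/M genes were followed in whole urinary bladders of mice that ate a vitamin A-enriched or a normal diet and were injected with cyclophosphamide or saline. The 43 genes were chosen by symbol, and each was matched to 1 row of the deposited gene count table, which holds 46333 named genes. All 43 passed the filter on low counts and were among the 19323 genes tested. The choice used no measured value of these libraries, although it was made with earlier results of the data known.

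The mice were wild-type BALB/c females aged 8 weeks, and 18 libraries of total RNA form 6 groups of 3 mice. The vitamin A groups were bladders taken 1 day after cyclophosphamide (CP, 150 mg per kg, intraperitoneal), 3 days after CP and 1 day after saline. The normal-diet groups were taken 1 day after CP, 3 days after CP and 1 day after saline. The enriched diet was given from 1 week before the injection, and the labels state 566081 UI of retinyl acetate per kg of diet, whereas the design text names retinyl palmitate. The study asked how extra dietary vitamin A affects regrowth of the urothelium, the bladder's lining epithelium. Saline bladders were taken at 1 day only, so the 3-day CP mice and the saline mice were not collected on the same day. Mice were housed 3 to a cage with no record of which shared one, so a cage may be a whole group. Each library is labelled as a biological replicate, so the tests measure the spread between mice.

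CP is an alkylating drug whose urinary metabolites damage the urothelium. The urothelium is nearly quiescent at rest and divides to replace lost cells after injury. A cell enters mitosis when CDK1 with cyclin B is switched on, its chromosomes are held by kinetochores on a bipolar spindle, a checkpoint waits until all are attached, and the anaphase-promoting complex then destroys cyclin B and securin so that the sister chromatids part and the cell divides. Most genes of this programme are transcribed late in the cell cycle, when MuvB complexes with B-MYB and FOXM1 act at promoters that carry a cell cycle homology region (CHR), often with CCAAT boxes that bind NF-Y.

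RefSeq promoters on GRCm38.p6, from 250 bases before to 50 bases after the start, were matched for 35 of the 43 genes, which gave 37 promoters. Both strands were searched for the CHR letters TTTGAA and TTCGAA and for CCAAT, and matches of different motifs can share only end bases. TTTGAA stood in 28 of 37 promoters (75.7%), against 17.9% of all 32851 promoters of the table. TTCGAA stood in 4 (10.8%, against 1.56%), and CCAAT in 29 (78.4%, against 37.4%). Either CHR spelling together with CCAAT was found in 27 of 37 (73.0%), against 7.52% of all promoters. Among 31 promoters of DNA replication and S phase genes, 6 held a CHR spelling (19.4%), 20 held CCAAT (64.5%) and 5 held both (16.1%). These letter matches are a description of the promoters and not evidence of binding.

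Promoter windows from 110 bases before to 10 bases after the start are shown for 7 genes that the results turn on, 5′ to 3′ along the gene, with CCAAT and CHR letters in capitals (ATTGG and TTCAAA are the same motifs on the other strand). Cdc20, Ube2c and Espl1 act in mitotic exit, Cdk1 and Ccnb1 in entry, and Depdc1a had the highest change after CP on the vitamin A diet, while Kif23 changed least.
Cdc20: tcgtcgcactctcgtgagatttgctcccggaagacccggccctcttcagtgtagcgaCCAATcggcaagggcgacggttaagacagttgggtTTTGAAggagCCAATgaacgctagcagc
Ube2c: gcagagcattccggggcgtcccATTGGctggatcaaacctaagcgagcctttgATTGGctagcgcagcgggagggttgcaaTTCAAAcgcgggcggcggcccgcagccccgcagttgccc
Cdk1: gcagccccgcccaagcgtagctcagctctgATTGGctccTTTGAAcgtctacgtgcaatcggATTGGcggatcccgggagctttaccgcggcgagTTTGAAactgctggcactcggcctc
Depdc1a: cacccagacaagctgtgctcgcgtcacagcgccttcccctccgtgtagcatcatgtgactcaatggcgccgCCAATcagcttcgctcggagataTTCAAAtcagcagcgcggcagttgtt
Espl1: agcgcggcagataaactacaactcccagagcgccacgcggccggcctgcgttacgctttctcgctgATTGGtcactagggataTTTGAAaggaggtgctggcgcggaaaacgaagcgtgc
Ccnb1: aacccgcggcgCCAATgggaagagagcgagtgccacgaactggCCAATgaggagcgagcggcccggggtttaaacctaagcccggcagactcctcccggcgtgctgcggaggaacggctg
Kif23: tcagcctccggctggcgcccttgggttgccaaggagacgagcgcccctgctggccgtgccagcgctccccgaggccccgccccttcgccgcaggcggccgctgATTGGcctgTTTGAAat
The windows lie at chr4:118437334-118437453 (minus strand), chr2:164769819-164769938 (plus strand), chr10:69352903-69353022 (minus strand), chr3:159495323-159495442 (plus strand), chr15:102296183-102296302 (plus strand), chr13:100786477-100786596 (minus strand) and chr9:61946790-61946909 (minus strand). Cdk1 carries a pair of TTTGAA matches and a pair of CCAAT boxes. Ccnb1, which encodes cyclin B1, has a pair of CCAAT boxes and no CHR spelling in its window. In Kif23 the TTTGAA letters begin at base +3, inside the transcript, where those of the other printed windows lie before the start. That position is not particular to Kif23, since TTTGAA also begins after the start in members such as Cenpf (+3), Kif18b (+4) and Plk1 (+31).

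Libraries held 19554132 to 34598952 counts, and mitochondrial genes took 1.66% to 3.79% of them. The highest mitochondrial share was in replicate 3 of vitamin A CP 1 day and the lowest in replicate 2 of vitamin A CP 3 days, and counts of calls that lead each comparison are also given without both. Levels are counts per 1000000 of the scaled library (CPM), and changes are log2 ratios from edgeR's quasi-likelihood test with Benjamini-Hochberg adjustment over all genes tested, at a threshold of 0.05. RNA came from whole bladders, so more dividing cells and more RNA of these genes per dividing cell cannot be told apart.

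Mitosis genes were low in every saline bladder and higher in every CP bladder when summed. The summed level of the 43 genes on the vitamin A diet was 99.8, 92.4 and 125 CPM in saline mice, 2141, 1274 and 898 CPM at 1 day and 796, 1049 and 1365 CPM at 3 days after CP. In normal-diet mice it was 88.3, 95.4 and 95.2 CPM after saline, 515, 916 and 316 CPM at 1 day and 1575, 1216 and 1574 CPM at 3 days after CP. At 1 day the spread between mice was wide, since the highest sum was 2.38 times the lowest on the vitamin A diet and 2.90 times on the normal diet. The same mice were high or low across nearly the whole list: among the normal-diet mice at 1 day, replicate 2 was highest for 43 of 43 genes and replicate 3 lowest for 42, and among the vitamin A mice replicate 1 was highest for 41 and replicate 3 lowest for 39.

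**Figure D1:**
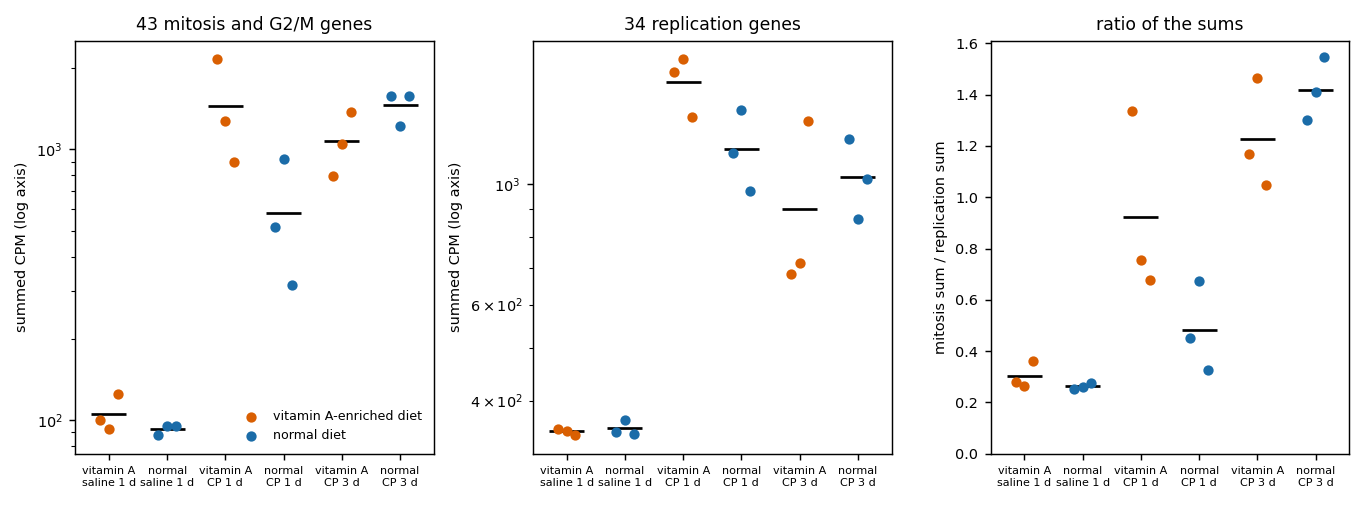
Summed CPM of the 43 mitosis genes (left) and of 34 replication genes (middle) on log axes, and the ratio of the sums (right), by group, with each point 1 mouse and lines for group means. The saline mice sit between 88.3 and 125 CPM for the mitosis genes, and the CP mice lie above them, from 316 CPM in a normal-diet mouse at 1 day to 2141 CPM in a vitamin A mouse at 1 day.

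**Figure D2:**
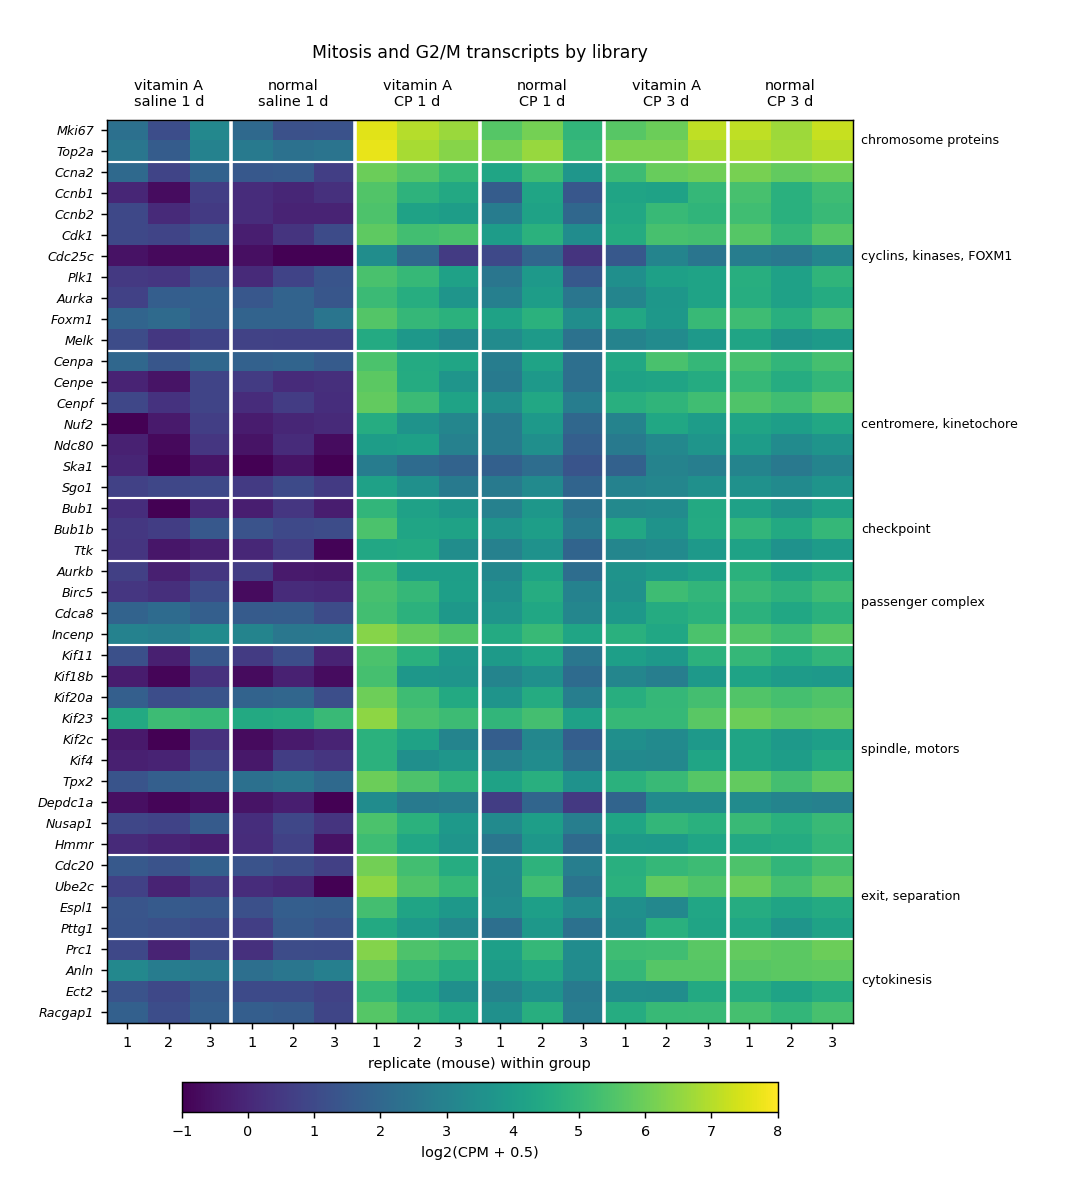
Level of each of the 43 genes in each mouse as log2(CPM + 0.5), with genes in rows grouped by role and mice in columns grouped by diet, treatment and day. The saline columns are dark for nearly all genes, with Kif23 bright in every column, and normal-diet replicates 1 and 3 at 1 day are the darkest CP columns.

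One day after CP, the mitotic programme was raised on both diets. On the vitamin A diet 42 of 43 genes rose and none fell, against a background of 10.2% of all genes higher and 9.05% lower, and the median log2 change was 4.69, against -0.01 over all genes. On the normal diet 42 of 43 rose and none fell, against 7.26% and 4.49%, and the median was 3.51, against -0.00066. The exception was Kif23 on both diets. The 3 CP mice lay above the 3 saline mice for 43 of 43 genes on the vitamin A diet, against 19.2% of all genes, and for 42 on the normal diet, against 20.8%. Every role group took part, with medians from 3.58 (cytokinesis) to 5.13 (spindle checkpoint) on the vitamin A diet and from 2.64 (cytokinesis) to 4.08 (kinetochore) on the normal diet.

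At 3 days after CP the programme was still raised. On the vitamin A diet 42 of 43 genes rose and none fell, against 4.32% and 1.67% of all genes, with a median log2 change of 4.10 (all genes 0.01). In normal-diet mice 43 of 43 rose and none fell, against 6.74% and 3.3%, with a median of 4.94 (all genes -0.00043). The 3 mice after CP lay above the 3 saline mice for 42 of 43 genes on the vitamin A diet (10.9% of all genes) and for 43 on the normal diet (19.8%). Both times are set against the same saline mice, so the counts at 1 day and 3 days are not independent. Without the libraries of the highest and the lowest mitochondrial share together, the counts were 43, 42, 42 and 43 for vitamin A at 1 day, normal at 1 day, vitamin A at 3 days and normal at 3 days. Over all genes 3862, 3614, 1548 and 2872 passed in those fits. Leaving out replicate 2 of the normal-diet CP mice at 1 day left 38 calls there, and Aurka, Cenpa, Plk1 and Pttg1 were lost. Calls over all genes went from 2271 to 1411 in that comparison.

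**Figure D3:**
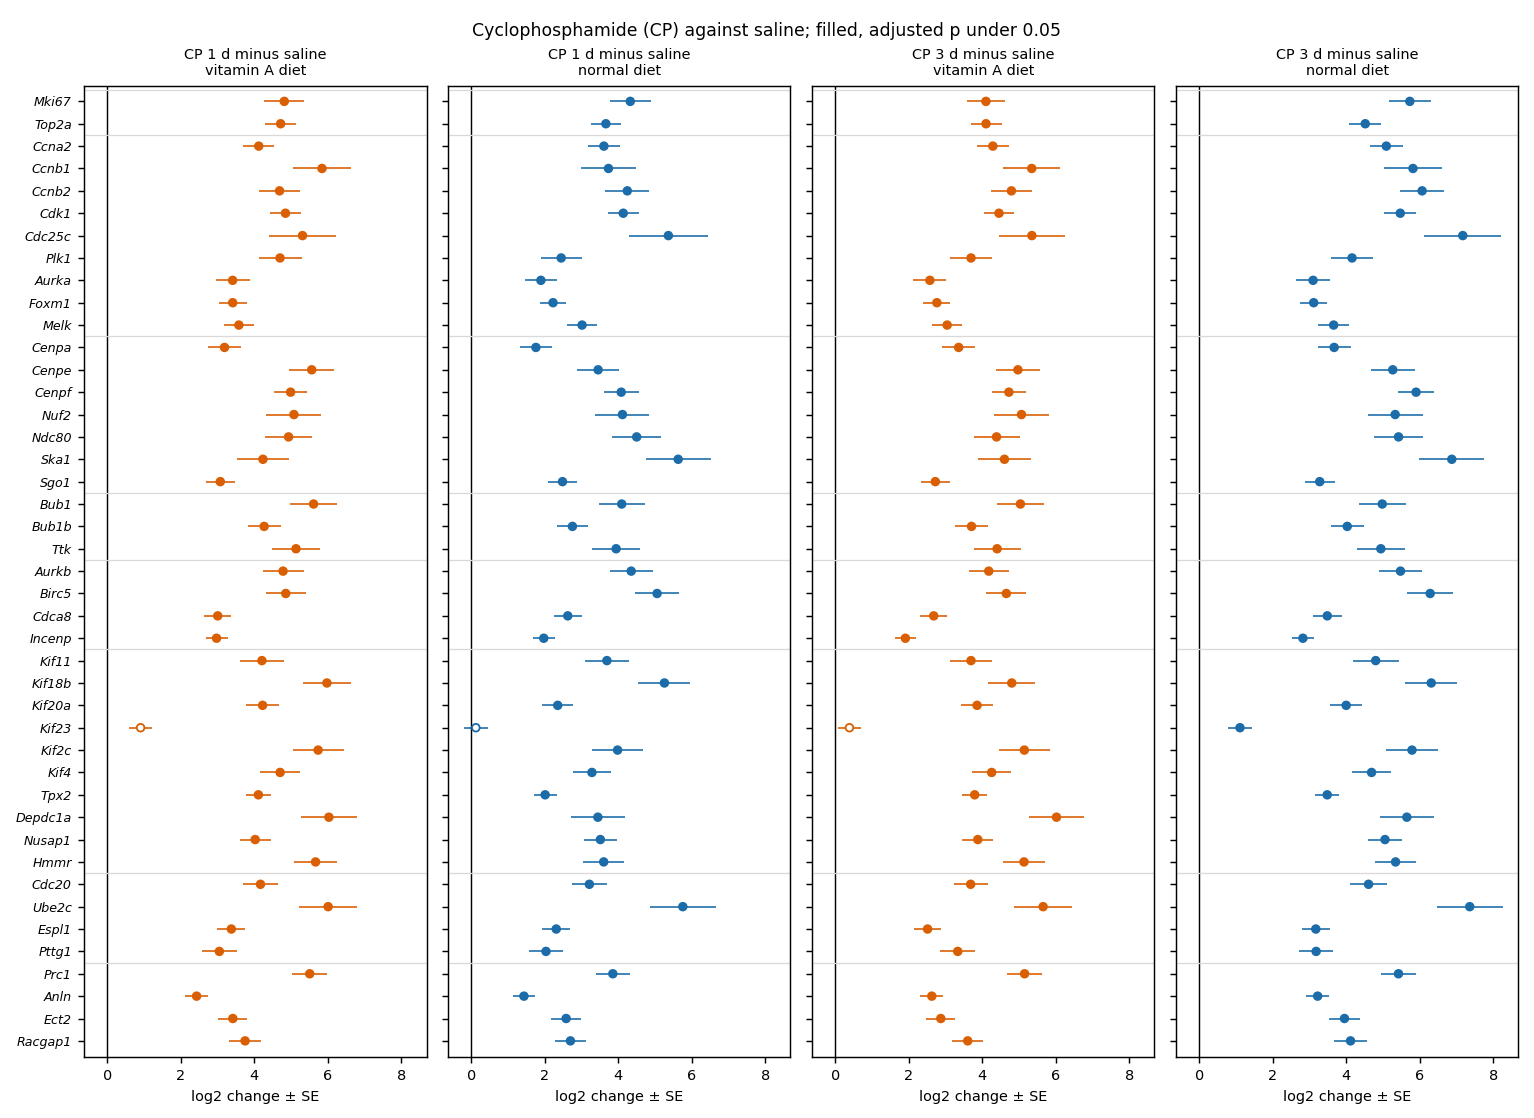
Log2 change (edgeR, ± SE) of each gene for CP against saline, with 1 panel for each diet and time, genes grouped by role and filled points past an adjusted p of 0.05. All points lie above 0, and the open ones are Kif23 in every panel but normal diet at 3 days.

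Among genes that mark dividing cells, Mki67 encodes Ki-67, which coats mitotic chromosomes, and Top2a encodes the topoisomerase that untangles sister DNA. Mki67 on the vitamin A diet was at 4.46, 1.66 and 8.80 CPM in saline mice, 192, 127 and 99.9 CPM at 1 day and 50.3, 62.5 and 142 CPM at 3 days after CP. Mki67 on the normal diet was at 3.75, 1.85 and 1.91 CPM in saline mice, 49.4, 69.1 and 29.9 CPM at 1 day and 139.9, 103 and 149.7 CPM at 3 days after CP. Neither diet's CP mice overlapped its saline mice at either time, and on the vitamin A diet the 3-day values spread into the 1-day range. The log2 change of Mki67 was 4.82 (SE 0.54, adjusted p = 9.81e-06) at 1 day and 4.10 (SE 0.52, adjusted p = 8.64e-05) at 3 days on the vitamin A diet, and 4.33 (SE 0.55, adjusted p = 7.74e-05) and 5.73 (SE 0.58, adjusted p = 6.06e-06) on the normal diet. Top2a changed by 4.72 and 4.10 on the vitamin A diet and by 3.66 and 4.52 on the normal diet.

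Entry into mitosis is driven by Foxm1, a transcription factor of late cell cycle genes, by the cyclins Ccna2, Ccnb1 and Ccnb2 and their kinase Cdk1. The phosphatase Cdc25c, which activates Cdk1, and the kinases Plk1 and Aurka also drive it, and the kinase Melk was grouped with them. All 9 rose at both times on both diets. Ccnb1 on the vitamin A diet was at 0.485, 0.119 and 1.07 CPM in saline mice, 46.8, 27.9 and 20.9 CPM at 1 day and 18.6, 17.9 and 31.3 CPM at 3 days after CP. Ccnb1 on the normal diet was at 0.591, 0.486 and 0.696 CPM in saline mice, 2.55, 19.3 and 2.24 CPM at 1 day and 40.8, 25.6 and 36.1 CPM at 3 days after CP. In normal-diet mice at 1 day Ccnb1 was low in replicates 1 and 3 and near the lowest vitamin A mouse in replicate 2, and no CP mouse overlapped its saline group. Ccnb1 changed by 5.84 (SE 0.78, adjusted p = 4.65e-05) and 5.35 (SE 0.77, adjusted p = 0.000240) on the vitamin A diet at 1 and 3 days, and by 3.73 (SE 0.76, adjusted p = 0.00367) and 5.82 (SE 0.78, adjusted p = 9.09e-05) on the normal diet.

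Cdk1 on the vitamin A diet was at 1.43, 1.31 and 1.94 CPM in saline mice, 54.5, 37.9 and 42.0 CPM at 1 day and 22.4, 41.2 and 38.8 CPM at 3 days after CP. Cdk1 on the normal diet was at 0.345, 0.777 and 1.60 CPM in saline mice, 15.2, 26.3 and 9.95 CPM at 1 day and 49.4, 31.7 and 48.9 CPM at 3 days after CP. Every CP mouse was above every saline mouse for Cdk1, and the 3 normal-diet mice at 1 day were the lowest of the CP mice on that diet. The log2 change was 4.85 and 4.46 on the vitamin A diet and 4.14 and 5.47 on the normal diet, with adjusted p of 6.46e-07, 3.66e-06, 1.03e-05 and 5.14e-07 by edgeR's quasi-likelihood test.

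Plk1 on the vitamin A diet was at 0.910, 0.831 and 1.82 CPM in saline mice, 42.6, 31.9 and 17.4 CPM at 1 day and 10.7, 17.0 and 18.1 CPM at 3 days after CP. Plk1 on the normal diet was at 0.542, 1.26 and 2.00 CPM in saline mice, 5.35, 13.8 and 2.28 CPM at 1 day and 24.2, 17.1 and 29.3 CPM at 3 days after CP. Plk1, which drives centrosome maturation and mitotic entry, separated CP from saline mice in each diet, but the lowest normal-diet CP mouse at 1 day stood just above the highest saline mouse. Its log2 change at 1 day was 4.70 (SE 0.58, adjusted p = 1.89e-05) on the vitamin A diet and 2.45 (SE 0.56, adjusted p = 0.00733) on the normal diet, and at 3 days 3.70 and 4.16. Without replicate 2 the normal-diet call for Plk1 at 1 day was lost.

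Foxm1 on the vitamin A diet was at 3.22, 3.80 and 2.81 CPM in saline mice, 47.3, 31.3 and 26.2 CPM at 1 day and 20.4, 13.3 and 33.2 CPM at 3 days after CP. Foxm1 on the normal diet was at 3.15, 3.11 and 5.15 CPM in saline mice, 17.8, 26.1 and 10.1 CPM at 1 day and 36.2, 25.4 and 38.6 CPM at 3 days after CP. All CP mice were above the saline mice of their diet for Foxm1. Foxm1 rose by 3.41 and 2.77 on the vitamin A diet and by 2.23 and 3.12 on the normal diet. Foxm1 overlaps Tex52 on the same strand, so its reads may be shared.

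Melk on the vitamin A diet was at 1.61, 0.871 and 1.24 CPM in saline mice, 22.3, 13.6 and 9.05 CPM at 1 day and 7.69, 9.69 and 13.6 CPM at 3 days after CP. Melk on the normal diet was at 1.23, 1.17 and 1.18 CPM in saline mice, 9.59, 14.6 and 4.81 CPM at 1 day and 18.6, 12.1 and 14.7 CPM at 3 days after CP. Melk, a kinase of the AMPK family, was low in saline mice and did not overlap them after CP. Its log2 change was 3.58 and 3.05 on the vitamin A diet and 3.02 and 3.66 on the normal diet. Cdc25c had only 3 counts in the 3 normal-diet saline libraries together, so its ratio there is given from the counts. It had 136 counts at 1 day, a ratio of 48.0 (95% exact counting interval 16.1 to 236), and 659 counts at 3 days, a ratio of 164 (55.9 to 798), and these intervals cover counting error only.

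Kinetochore genes rose together at both times on both diets, 7 of 7 in each comparison. They are Cenpa, the histone variant that marks the centromere, the microtubule-binding Nuf2, Ndc80 and Ska1, the motor Cenpe, the scaffold Cenpf, and Sgo1, which protects centromeric cohesion. Cenpa on the vitamin A diet was at 3.52, 2.18 and 3.47 CPM in saline mice, 42.8, 22.2 and 19 CPM at 1 day and 20.6, 42.6 and 31.3 CPM at 3 days after CP. Cenpa on the normal diet was at 2.96, 3.25 and 2.51 CPM in saline mice, 6.60, 18.3 and 4.43 CPM at 1 day and 41.2, 29.8 and 39.9 CPM at 3 days after CP. The CP mice lay above the saline mice of their diet, with normal-diet replicates 1 and 3 at 1 day closest to them. Cenpa changed by 3.19 (SE 0.44, adjusted p = 5.18e-05) and 3.36 on the vitamin A diet and by 1.76 (SE 0.44, adjusted p = 0.0129) and 3.67 on the normal diet at 1 and 3 days. Ska1 on the vitamin A diet was at 0.455, 0 and 0.207 CPM in saline mice, 6.35, 3.89 and 3.13 CPM at 1 day and 2.95, 7.55 and 6.79 CPM at 3 days after CP. Ska1 on the normal diet was at 0, 0.194 and 0 CPM in saline mice, 2.89, 4.09 and 2.03 CPM at 1 day and 7.85, 5.73 and 7.79 CPM at 3 days after CP. Ska1 was among the lowest genes of the list, at 0 in 3 of the 6 saline libraries, and was detected in every CP library. Its log2 change was 4.24 and 4.61 on the vitamin A diet and 5.63 and 6.87 on the normal diet.

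The spindle checkpoint kinase genes Bub1 and Ttk and the checkpoint gene Bub1b rose in all comparisons with saline. Bub1 on the vitamin A diet was at 0.637, 0 and 0.537 CPM in saline mice, 29.7, 17.2 and 13.0 CPM at 1 day and 8.97, 9.56 and 21.6 CPM at 3 days after CP. Bub1 on the normal diet was at 0.345, 0.826 and 0.333 CPM in saline mice, 7.23, 13.1 and 4.81 CPM at 1 day and 17.2, 12.1 and 17.2 CPM at 3 days after CP. CP and saline mice did not overlap for Bub1 on either diet, and the highest CP mouse at each time ate the vitamin A diet. The log2 change of Bub1 was 5.61 (SE 0.65, adjusted p = 8.86e-06) and 5.04 on the vitamin A diet and 4.09 (SE 0.63, adjusted p = 0.000300) and 4.98 on the normal diet. Ttk changed by 5.13 and 4.41 on the vitamin A diet and by 3.94 and 4.94 on the normal diet, and Bub1b by 4.27 and 3.71 and by 2.75 and 4.03.

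The chromosomal passenger complex corrects wrong attachments and then guides cleavage. It consists of the kinase Aurkb, the scaffold Incenp, Birc5 (survivin) and Cdca8 (borealin), and all 4 genes rose in each comparison with saline. Aurkb on the vitamin A diet was at 1.12, 0.356 and 0.827 CPM in saline mice, 32.9, 15.9 and 16.1 CPM at 1 day and 11.7, 13.7 and 17.3 CPM at 3 days after CP. Aurkb on the normal diet was at 1.03, 0.291 and 0.242 CPM in saline mice, 8.43, 18 and 4.14 CPM at 1 day and 26.4, 17.7 and 22.6 CPM at 3 days after CP. No CP mouse overlapped its saline group. Aurkb changed by 4.78 (SE 0.56, adjusted p = 9.68e-06) and 4.18 on the vitamin A diet and by 4.35 (SE 0.58, adjusted p = 9.05e-05) and 5.48 on the normal diet.

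Incenp on the vitamin A diet was at 7.49, 6.69 and 9.55 CPM in saline mice, 82.5, 58.7 and 45.0 CPM at 1 day and 25.5, 19.9 and 43.5 CPM at 3 days after CP. Incenp on the normal diet was at 7.93, 5.39 and 5.60 CPM in saline mice, 22.0, 32.8 and 19.3 CPM at 1 day and 46.2, 36.4 and 51.0 CPM at 3 days after CP. Incenp was already at several CPM in saline mice and CP and saline mice did not overlap. Its log2 change was 2.97 (SE 0.30, adjusted p = 2.43e-06) and 1.91 on the vitamin A diet and 1.97 (SE 0.29, adjusted p = 0.000232) and 2.82 on the normal diet. Birc5 changed by 4.86 and 4.66 on the vitamin A diet and by 5.06 and 6.29 on the normal diet.

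Spindle genes include the kinesins Kif11, which pushes the poles apart, Kif2c, which removes tubulin from microtubule ends, and Kif4, Kif18b, Kif20a and Kif23, with the spindle factors Tpx2, Nusap1 and Hmmr and with Depdc1a. Of these 10 genes 9 rose at 1 day on each diet, 9 at 3 days on the vitamin A diet and 10 on the normal diet. Kif20a on the vitamin A diet was at 2.79, 1.66 and 2.03 CPM in saline mice, 64.2, 36.8 and 21.4 CPM at 1 day and 24.4, 31.3 and 39.2 CPM at 3 days after CP. Kif20a on the normal diet was at 3.15, 3.45 and 1.76 CPM in saline mice, 12.2, 23.0 and 6.80 CPM at 1 day and 46.4, 40.2 and 45.1 CPM at 3 days after CP. Kif20a, a kinesin of the central spindle, separated CP from saline mice in both diets. It changed by 4.23 (SE 0.44, adjusted p = 3.25e-06) and 3.86 on the vitamin A diet and by 2.35 (SE 0.42, adjusted p = 0.00115) and 4.0 on the normal diet, and its gene overlaps Brd8 and Cdc23.

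Depdc1a on the vitamin A diet was at 0.152, 0.0396 and 0.124 CPM in saline mice, 9.78, 5.84 and 6.47 CPM at 1 day and 3.23, 9.35 and 9.39 CPM at 3 days after CP. Depdc1a on the normal diet was at 0.197, 0.340 and 0 CPM in saline mice, 1.06, 3.33 and 0.912 CPM at 1 day and 9.57, 7.87 and 7.19 CPM at 3 days after CP. Depdc1a was nearly absent from saline bladders and present in all CP bladders. On the vitamin A diet it had the highest log2 change of the list at both times, 6.03 (SE 0.75, adjusted p = 1.93e-05) at 1 day and 6.02 (SE 0.75, adjusted p = 4.99e-05) at 3 days. It changed by 3.45 and 5.65 on the normal diet.

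Kif18b on the vitamin A diet was at 0.303, 0.0396 and 0.703 CPM in saline mice, 40.0, 13.2 and 12.4 CPM at 1 day and 8.21, 6.66 and 14.2 CPM at 3 days after CP. Kif18b on the normal diet was at 0.0986, 0.389 and 0.121 CPM in saline mice, 7.76, 10.9 and 3.98 CPM at 1 day and 18.2, 14.7 and 14.2 CPM at 3 days after CP. Kif18b, a kinesin that shortens astral microtubules, did not overlap between CP and saline mice, and 1 vitamin A mouse at 1 day stood far above the rest. Its log2 change was 5.98 and 4.80 on the vitamin A diet and 5.26 and 6.31 on the normal diet. Tpx2 on the vitamin A diet was at 2.03, 2.77 and 3.14 CPM in saline mice, 62.8, 44.5 and 29.2 CPM at 1 day and 26.4, 34 and 49.3 CPM at 3 days after CP. Tpx2 on the normal diet was at 4.53, 5.34 and 3.69 CPM in saline mice, 17.8, 24.9 and 11.6 CPM at 1 day and 57.0, 39.7 and 54.4 CPM at 3 days after CP. Tpx2, which activates aurora A on the spindle, also separated CP from saline mice and rose by 4.11 and 3.80 on the vitamin A diet and by 2.01 and 3.48 on the normal diet.

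Kif23 encodes a motor of centralspindlin, the complex that organises the midzone, and it had the highest FPKM of the list at rest. Kif23 on the vitamin A diet was at 21.4, 35.3 and 32.1 CPM in saline mice, 88.0, 42.2 and 35.9 CPM at 1 day and 32.3, 32.3 and 51.4 CPM at 3 days after CP. Kif23 on the normal diet was at 21.8, 23.0 and 33.6 CPM in saline mice, 29.5, 39.1 and 17.1 CPM at 1 day and 63.0, 52.0 and 54.7 CPM at 3 days after CP. Vitamin A mice at 1 day did not overlap their saline group, while saline and CP mice overlapped on the normal diet at 1 day and on the vitamin A diet at 3 days. The log2 change of Kif23 was 0.91 (SE 0.32, adjusted p = 0.0560) at 1 day and 0.39 (SE 0.32, adjusted p = 0.566) at 3 days on the vitamin A diet. In normal-diet mice it was 0.13 (SE 0.32, adjusted p = 0.855) at 1 day, which became -0.17 without replicate 2 of the CP mice, and 1.11 (SE 0.32, adjusted p = 0.0347) at 3 days.

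Mitotic exit genes rose in all comparisons, 4 of 4. Cdc20 activates the anaphase-promoting complex, Ube2c is its ubiquitin-conjugating enzyme, Pttg1 encodes securin and Espl1 the protease separase that securin holds. Cdc20 on the vitamin A diet was at 2.34, 1.98 and 2.85 CPM in saline mice, 67.3, 38.5 and 23.1 CPM at 1 day and 24.8, 31.5 and 35.9 CPM at 3 days after CP. Cdc20 on the normal diet was at 1.97, 1.65 and 1.12 CPM in saline mice, 9.06, 27.4 and 6.75 CPM at 1 day and 44.1, 29.7 and 40.0 CPM at 3 days after CP. CP mice were above saline mice in each diet, and normal-diet replicates 1 and 3 at 1 day were the lowest of them. Cdc20 changed by 4.17 (SE 0.47, adjusted p = 7.35e-06) and 3.69 on the vitamin A diet and by 3.21 (SE 0.48, adjusted p = 0.000225) and 4.61 on the normal diet.

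Ube2c on the vitamin A diet was at 1.15, 0.435 and 0.909 CPM in saline mice, 87.2, 45.8 and 31.8 CPM at 1 day and 26.6, 56.7 and 45.9 CPM at 3 days after CP. Ube2c on the normal diet was at 0.591, 0.486 and 0 CPM in saline mice, 8.72, 37.3 and 5.06 CPM at 1 day and 60.4, 40.3 and 55.0 CPM at 3 days after CP. Ube2c was near or at 0 in saline mice and did not overlap them after CP, and normal-diet replicates 1 and 3 at 1 day were again low. It had the highest log2 change of the list on the normal diet, 5.76 (SE 0.89, adjusted p = 0.000500) at 1 day and 7.36 (SE 0.90, adjusted p = 5.51e-05) at 3 days. On the vitamin A diet it changed by 6.01 and 5.66.

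Espl1 on the vitamin A diet was at 2.09, 2.45 and 2.31 CPM in saline mice, 39.1, 18.8 and 13.3 CPM at 1 day and 10.9, 8.79 and 19.4 CPM at 3 days after CP. Espl1 on the normal diet was at 1.77, 2.72 and 2.60 CPM in saline mice, 9.54, 16.5 and 9.37 CPM at 1 day and 23.4, 18.6 and 22.4 CPM at 3 days after CP. Espl1 separated CP from saline mice and rose by 3.38 and 2.51 on the vitamin A diet and by 2.31 and 3.17 on the normal diet. Pttg1 on the vitamin A diet was at 2.00, 1.78 and 1.57 CPM in saline mice, 21.7, 14.2 and 8.65 CPM at 1 day and 9.81, 25.7 and 18.8 CPM at 3 days after CP. Pttg1 on the normal diet was at 1.08, 2.43 and 1.94 CPM in saline mice, 4.34, 13.4 and 4.68 CPM at 1 day and 19.8, 12.4 and 17.6 CPM at 3 days after CP. Pttg1 did likewise, with log2 changes of 3.05 and 3.33 on the vitamin A diet and 2.03 and 3.18 on the normal diet.

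Cytokinesis genes are Prc1, which bundles the midzone microtubules, Anln, which anchors the contractile ring, Ect2, which activates RhoA, and Racgap1, the partner of Kif23 in centralspindlin. All 4 rose in each comparison. Prc1 on the vitamin A diet was at 1.46, 0.435 and 1.57 CPM in saline mice, 80.5, 43.8 and 35.3 CPM at 1 day and 36.8, 37.0 and 50.9 CPM at 3 days after CP. Prc1 on the normal diet was at 0.690, 1.65 and 1.57 CPM in saline mice, 16.6, 31.2 and 9.95 CPM at 1 day and 56.1, 53.0 and 62.4 CPM at 3 days after CP. CP and saline mice did not overlap for Prc1. It changed by 5.51 (SE 0.47, adjusted p = 6.46e-07) and 5.15 on the vitamin A diet and by 3.85 (SE 0.46, adjusted p = 2.87e-05) and 5.42 on the normal diet. Racgap1 rose by 3.75 and 3.61 on the vitamin A diet and by 2.7 and 4.12 on the normal diet, where its partner Kif23 had the values above.

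**Figure D4:**
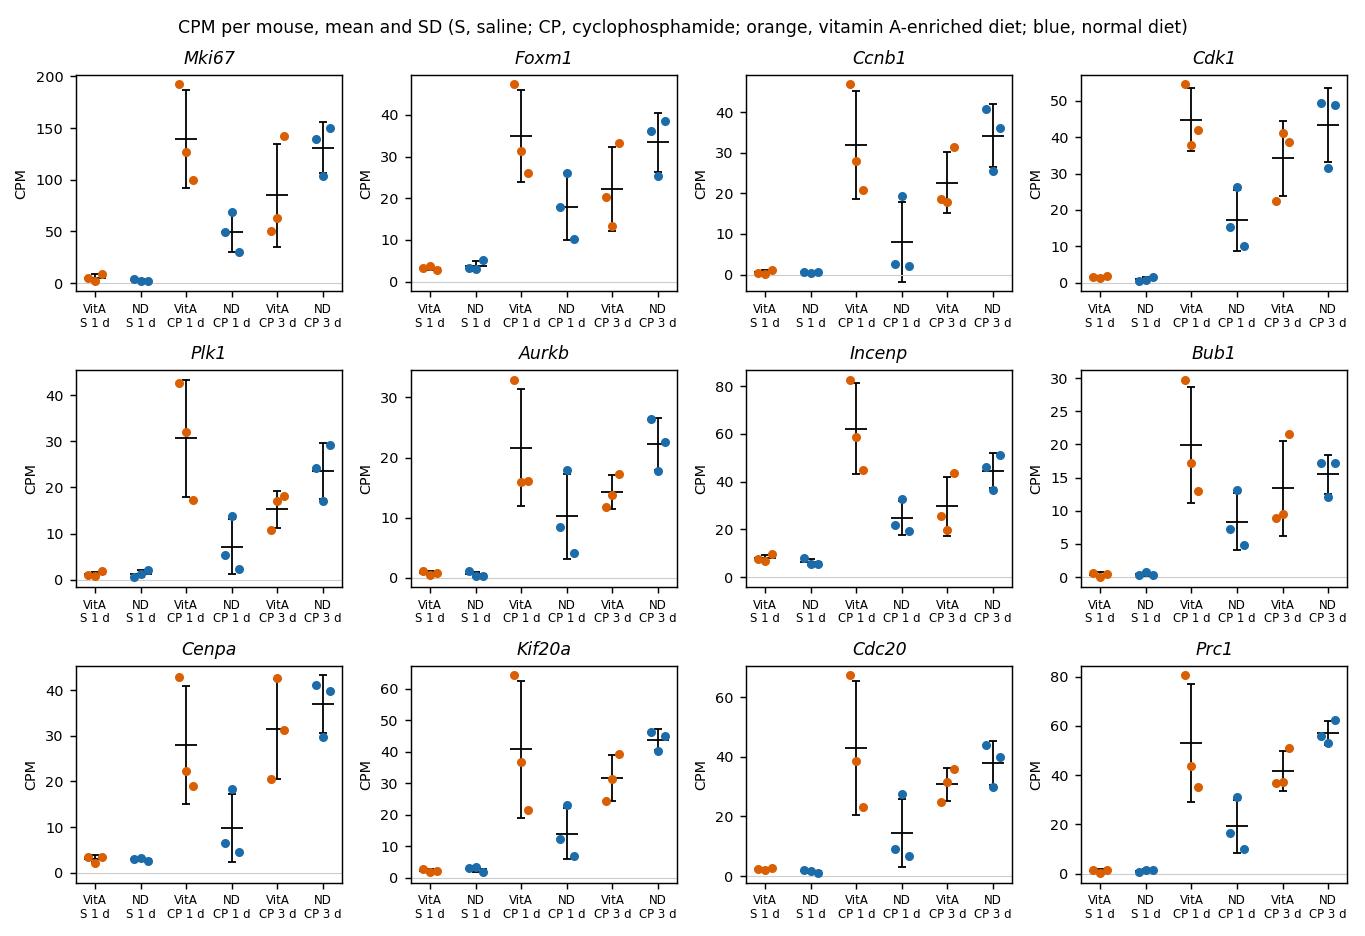
CPM of 12 mitosis genes in each mouse by group, with 1 panel per gene, points for mice and bars for mean and SD. In each panel the CP mice lie above the saline mice of their diet, and at 1 day after CP the normal-diet points are lower on average than the vitamin A points.

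Per gene length, with the authors' FPKM, the order of levels differed between saline and CP mice. In saline mice Kif23 was highest, at 8.39 ± 2.06 FPKM on the vitamin A diet and 7.45 ± 1.88 FPKM on the normal diet (SD, n = 3), and Incenp came next. In CP mice Ube2c was highest in all 4 groups, at 58.4 ± 30.3 FPKM for vitamin A and 17.9 ± 18.5 FPKM for the normal diet at 1 day, and 45.3 ± 16.1 FPKM and 54.7 ± 10.9 FPKM at 3 days. The SD of Ube2c was as large as its mean in normal-diet mice at 1 day.

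Other genes of the pathway were taken from lists. Of 76 further mitosis genes, 71 rose on the vitamin A diet and 63 on the normal diet at 1 day, 66 and 70 at 3 days, and none fell. Median log2 changes were 3.14 and 2.18 at 1 day and 2.49 and 2.85 at 3 days. Of 34 DNA replication genes 33 and 32 rose at 1 day and 32 and 31 at 3 days, with medians of 2.58, 2.21, 1.80 and 1.87. Mcm6, a subunit of the replicative helicase, rose by 4.26 and 3.51 on the vitamin A diet and by 4.07 and 3.92 on the normal diet. Pcna, the sliding clamp of DNA polymerase, changed by 1.36 (adjusted p = 1.68e-05) and 0.74 (adjusted p = 0.00984) on the vitamin A diet and by 1.21 (adjusted p = 0.000114) and 0.98 (adjusted p = 0.000721) on the normal diet by edgeR's quasi-likelihood test.

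Of 15 subunits and activators of the anaphase-promoting complex, 2 rose on the vitamin A diet and 0 on the normal diet at 1 day, 0 and 1 at 3 days, and none fell, with 3, 3, 2 and 1 at an unadjusted p under 0.05 in edgeR. Over all 19323 genes 6163, 5017, 3645 and 4466 had such a p, in the same order. Of 18 genes that restrain G2 or respond to p53, 8 rose and 1 fell on the vitamin A diet at 1 day, and 8 and 3 on the normal diet. Cdkn1a, the p53 target that encodes the CDK inhibitor p21, was at 269.8 ± 23.2 CPM and 208 ± 25.0 CPM at 1 day after CP, against 71.8 ± 3.11 CPM and 52.0 ± 3.16 CPM in saline mice (vitamin A and normal diet, SD, n = 3). It rose by 1.91 and 1.80 on the vitamin A diet and by 2.00 and 2.32 on the normal diet at 1 and 3 days. Wee1, whose kinase holds CDK1 off, changed by 0.82 (adjusted p = 0.00127) and 0.71 (adjusted p = 0.00677) at 1 day. Gadd45a, a p53 target, changed by -0.17 and -0.03 at 1 day (adjusted p = 0.604 and 0.947). Sfn, which encodes 14-3-3 sigma, changed by 0.62 and 0.34 at 1 day (adjusted p = 0.103 and 0.436).

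Cell type markers moved in the same bladders. Of 9 basal urothelium markers 7 rose on the vitamin A diet and 5 on the normal diet at 1 day, and their sum was 4817 to 6892 CPM and 4583 to 5528 CPM, against 1533 to 1736 CPM and 2123 to 2328 CPM in saline mice. Of 12 umbrella cell markers 7 fell and 1 rose on the vitamin A diet at 1 day, with sums of 6781 to 10016 CPM after CP and 10222 to 10769 CPM after saline, and 2 fell on the normal diet, with sums of 8391 to 10343 CPM and 10423 to 10801 CPM. At 3 days 5 and 5 basal markers rose and 4 and 4 umbrella cell markers fell on the vitamin A and normal diets. Of 8 fibroblast markers 7 and 6 fell at 1 day, where sums were 1610.3 to 3545 CPM and 2128 to 3206 CPM, against 6525 to 7604 CPM and 6221 to 7047 CPM after saline. At 3 days 1 rose on the normal diet, and fibroblast sums were 6008 to 12913 CPM and 8278 to 12482 CPM. Of 9 macrophage and monocyte markers 3 and 6 rose at 3 days, 2 and 3 rose at 1 day, where 2 fell on the vitamin A diet, and sums at 3 days were 527 to 799.9 CPM and 602 to 904 CPM, against 364 to 606 CPM and 347 to 391 CPM after saline. Neutrophil markers summed to at most 31.8 CPM in any library, and Ly6g was at 0 in all groups but vitamin A CP 1 day. Of their 5 tested members 3 and 1 rose at 1 day, with sums of 7.76 to 31.8 CPM and 5.21 to 13.8 CPM, against 3.34 to 5.33 CPM and 2.76 to 2.91 CPM after saline, and none passed at 3 days. Of 9 lymphocyte markers 3 fell at 1 day on the vitamin A diet, with sums of 1.64 to 4.28 CPM after CP and 4.55 to 19 CPM after saline, and none passed on the normal diet or at 3 days. Of 7 endothelial markers 2 and 5 rose at 3 days, and 1 rose at 1 day on the normal diet. Of 9 smooth muscle markers 2 and 2 fell at 1 day, and 1 and 3 at 3 days. Against saline no adipocyte marker passed at either time, and of 5 mesothelium markers at most 1 rose and 1 fell. Of 6 erythroid markers 4 fell at 1 day on the vitamin A diet, and 3 fell and 1 rose on the normal diet. Of the same markers 5 and 5 fell at 3 days, with sums of 0.917 to 1.19 CPM and 1.15 to 1.5 CPM, against 95 to 258 CPM and 75.2 to 146 CPM after saline, and Hba-a2 and Hbb-bt were at 0 there. What part cell composition has in the mitosis values was not tested.

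From 1 day to 3 days after CP, part of the list rose further on the normal diet. On the vitamin A diet 1 of 43 genes fell, against 1.69% of all genes, and none rose, against 2.55%. Whether the diets differed in this is tested as an interaction after the diet comparisons. On the normal diet 7 of 43 genes rose and none fell, against 1.22% and 0.217% of all genes. All 43 log2 changes were above 0, with a median of 1.37, against -0.01 over all genes. For 36 of 43 genes the 3 mice at 3 days lay above the 3 mice at 1 day, which held for 11.9% of all genes. Median changes by role were 1.51 for spindle genes, 1.49 for cytokinesis, 1.48 for entry, 1.27 for exit, 1.24 for kinetochore, 1.13 for Mki67 and Top2a, 1.00 for checkpoint and 0.99 for passenger complex genes.

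The 7 genes that rose on the normal diet were Anln, Tpx2, Cenpf, Cenpa, Kif20a, Nusap1 and Prc1. Anln averaged 52.2 ± 1.84 CPM at 3 days and 15.1 ± 5.43 CPM at 1 day (SD, n = 3 each), a log2 change of 1.79 (SE 0.30, adjusted p = 0.00393). Tpx2 changed by 1.47 (SE 0.29, adjusted p = 0.0142), Cenpf by 1.82 (SE 0.38, adjusted p = 0.0184) and Cenpa by 1.91 (SE 0.41, adjusted p = 0.0218). Kif20a changed by 1.65 (SE 0.38, adjusted p = 0.0378), Nusap1 by 1.54 (SE 0.37, adjusted p = 0.0416) and Prc1 by 1.57 (SE 0.38, adjusted p = 0.0419), all by edgeR's quasi-likelihood test. For all 7 genes every mouse at 3 days was above every mouse at 1 day. Depdc1a had the highest log2 change, 2.20 (SE 0.56, adjusted p = 0.060), and Melk the lowest, 0.64 (SE 0.36, adjusted p = 0.552), and neither passed. Mki67 had 1.40 (SE 0.46, adjusted p = 0.179) and Ccnb1 2.08 (SE 0.61, adjusted p = 0.117), and neither of them passed.

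The number of calls on the normal diet hung on single mice. It was 21 without replicate 2 at 1 day, 13 and 12 without replicate 1 or 3 of vitamin A at 1 day, 1 without replicate 1 or 3 at 1 day or replicate 3 at 3 days, and 2 and 4 without replicate 1 or 2 at 3 days. In the same order calls over all genes were 257, 372, 339, 70, 109, 130, 194 and 113, against 278 with all libraries. The median change lay between 1.06 and 1.83 in these fits, and Anln passed in all 26 alternatives.

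On the vitamin A diet none of the 43 genes rose between 1 and 3 days and 1 fell, against 2.55% and 1.69% of all genes. The median log2 change was -0.48, against 0.01 over all genes, with 7 genes above 0. The gene that fell was Incenp, -1.06 (SE 0.28, adjusted p = 0.0360), whose 3 mice at 3 days were all below the 3 mice at 1 day, which held for 1 of 43 members and 7.85% of all genes. Ska1 had the highest log2 change, 0.37 (SE 0.58, adjusted p = 0.778), and Kif18b the lowest, -1.17 (SE 0.50, adjusted p = 0.196). Mki67 had -0.72 (SE 0.45, adjusted p = 0.415). The Incenp call was lost without any of replicates 1 and 2 at 1 day or replicates 1 and 2 at 3 days, and without replicate 1 at 1 day 21 genes were above 0 with a median of -0.01. Of the 34 replication genes 8 fell on the vitamin A diet, with a median of -0.75, and none passed on the normal diet, with a median of -0.13. There 1 replication gene had an unadjusted p under 0.05, against 2184 of 19323 over all genes. In the same interval 7 of 8 fibroblast markers rose on the vitamin A diet and 4 on the normal diet, and whether they bear on the mitosis values was not tested.

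The sum of the 43 mitosis genes was set against the sum of the 34 replication genes in each mouse. On the vitamin A diet the ratio was 0.263 to 0.360 in saline mice, 0.677 to 1.34 at 1 day and 1.05 to 1.47 at 3 days. In normal-diet mice it was 0.252 to 0.274 after saline, 0.326 to 0.672 at 1 day and 1.30 to 1.55 at 3 days. Among normal-diet mice the 3 stages did not overlap, and at 1 day the vitamin A mice all stood above the normal-diet mice by a narrow margin. In saline mice Kif23, which changed least after CP, averaged 29.6 CPM of a mean mitosis sum of 105.6 CPM on the vitamin A diet. On the normal diet it averaged 26.1 CPM of 92.9 CPM, so the saline ratios rest in part on this gene. The ratios are a description and carry no test.

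In saline mice no effect of the diet on mitosis genes was detected. None of the 43 passed in either direction, against 0.0104% of all genes higher and 0% lower. At an unadjusted p under 0.05 there was 1 member, against 730 of all 19323 genes, and DESeq2 called 0 members. The median log2 change was 0.17, against 0.01 over all genes, and 26 genes were above 0. The groups did not overlap for 3 genes higher (7.79% of all genes) and 1 lower (7.59%). Tpx2 had the lowest change, -0.77 (unadjusted p = 0.0312), with every vitamin A mouse below every normal-diet mouse. Ska1 had the highest, 1.96 (SE 1.06, adjusted p = 1.00), on very few counts. Mki67 had 1.01 (SE 0.54, adjusted p = 1.00), with 1 vitamin A mouse below the normal-diet mice.

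One day after CP, mitosis genes stood higher on the vitamin A diet than on the normal diet across the list, and 1 gene passed. Incenp rose by 1.33 (SE 0.28, adjusted p = 0.0442), against 0.238% of all genes higher and 0.228% lower. All 43 log2 changes were above 0, with a median of 1.31, against -0.01 over all genes. At an unadjusted p under 0.05 there were 38 members and 2145 of the 19323 genes tested. The same mice at 1 day were high or low across nearly the whole list. Such counts of genes, here and in the other comparisons with these mice, are therefore not independent. For 14 of 43 genes the 3 vitamin A mice were above the 3 normal-diet mice, which held for 7.18% of all genes. These were Plk1, Depdc1a, Ccnb1, Kif18b, Cenpa, Mki67, Prc1, Cdk1, Incenp, Tpx2, Anln, Kif4, Bub1b and Foxm1. For the others normal-diet replicate 2 stood above at least 1 vitamin A mouse.

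Plk1 had the highest log2 change, 2.09 (SE 0.50, adjusted p = 0.0781), and Ska1 the lowest, 0.57 (SE 0.58, adjusted p = 0.798). Tpx2 had 1.33 (SE 0.29, adjusted p = 0.0533) and Cdk1 1.39 (SE 0.35, adjusted p = 0.0904), and both missed the threshold. Mki67 averaged 139.6 ± 47.5 CPM on the vitamin A diet and 49.5 ± 19.6 CPM on the normal diet (SD, n = 3 each), a log2 change of 1.5 (SE 0.46, adjusted p = 0.174). Ccnb1 averaged 31.9 ± 13.4 CPM and 8.02 ± 9.74 CPM, a log2 change of 1.98 (SE 0.61, adjusted p = 0.175) by edgeR's quasi-likelihood test. By role the medians were 1.45 for spindle genes, 1.36 for entry, 1.30 for cytokinesis, 1.29 for exit, 1.25 for checkpoint, 1.09 for the passenger complex and 1.03 for kinetochore genes.

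The direction held in every alternative and the number of calls did not. Without normal-diet replicate 2 at 1 day 16 genes passed and the median was 1.74, without vitamin A replicate 1 at 1 day none passed and the median was 0.86, and without 13 of the 18 libraries in turn none passed. Over all genes 75 passed without that normal-diet mouse and 305 without that vitamin A mouse, against 90 with all libraries. Of the further mitosis genes 2 of 76 rose, with a median of 0.81, and of the replication genes none passed, with a median of 0.38. At an unadjusted p under 0.05 there were 5 replication genes, against 2145 of 19323 over all genes. Adipocyte markers stood higher as well, with sums of 499.9 to 1455 CPM on the vitamin A diet and 305 to 446 CPM on the normal diet and 0 of 6 past the threshold (2 at an unadjusted p under 0.05), and their part in the mitosis values was not tested. Of 9 basal markers none passed, with sums of 4817 to 6892 CPM and 4583 to 5528 CPM.

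At 3 days after CP the order of the diets was the other way and no gene passed. None of the 43 was past the threshold, against 0.00518% of all genes higher and 0% lower, and DESeq2 called 0 members. At an unadjusted p under 0.05 there was 1 member (Incenp), against 727 of all 19323 genes. The median log2 change was -0.46, against -0.002 over all genes, and only Pttg1 was above 0, at 0.13 (SE 0.42, adjusted p = 0.994). Espl1 had the lowest change, -0.72 (SE 0.34, adjusted p = 0.994). For 8 genes (Anln, Prc1, Kif20a, Cenpe, Kif23, Aurkb, Hmmr and Kif18b) all 3 vitamin A mice were below all 3 normal-diet mice, which held for 3.78% of all genes. Among the normal-diet mice at 3 days replicate 2 was lowest for 39 of 43 genes. Among the vitamin A mice replicate 3 was highest for 33 and replicate 1 lowest for 30. Counts of genes in this comparison are therefore not independent either. Mki67 averaged 85 ± 49.8 CPM on the vitamin A diet and 131 ± 24.5 CPM on the normal diet (SD, n = 3 each), with -0.62 (SE 0.45, adjusted p = 0.994). Pttg1 fell below 0 when replicate 2 of either CP group at 3 days was left out.

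**Figure D5:**
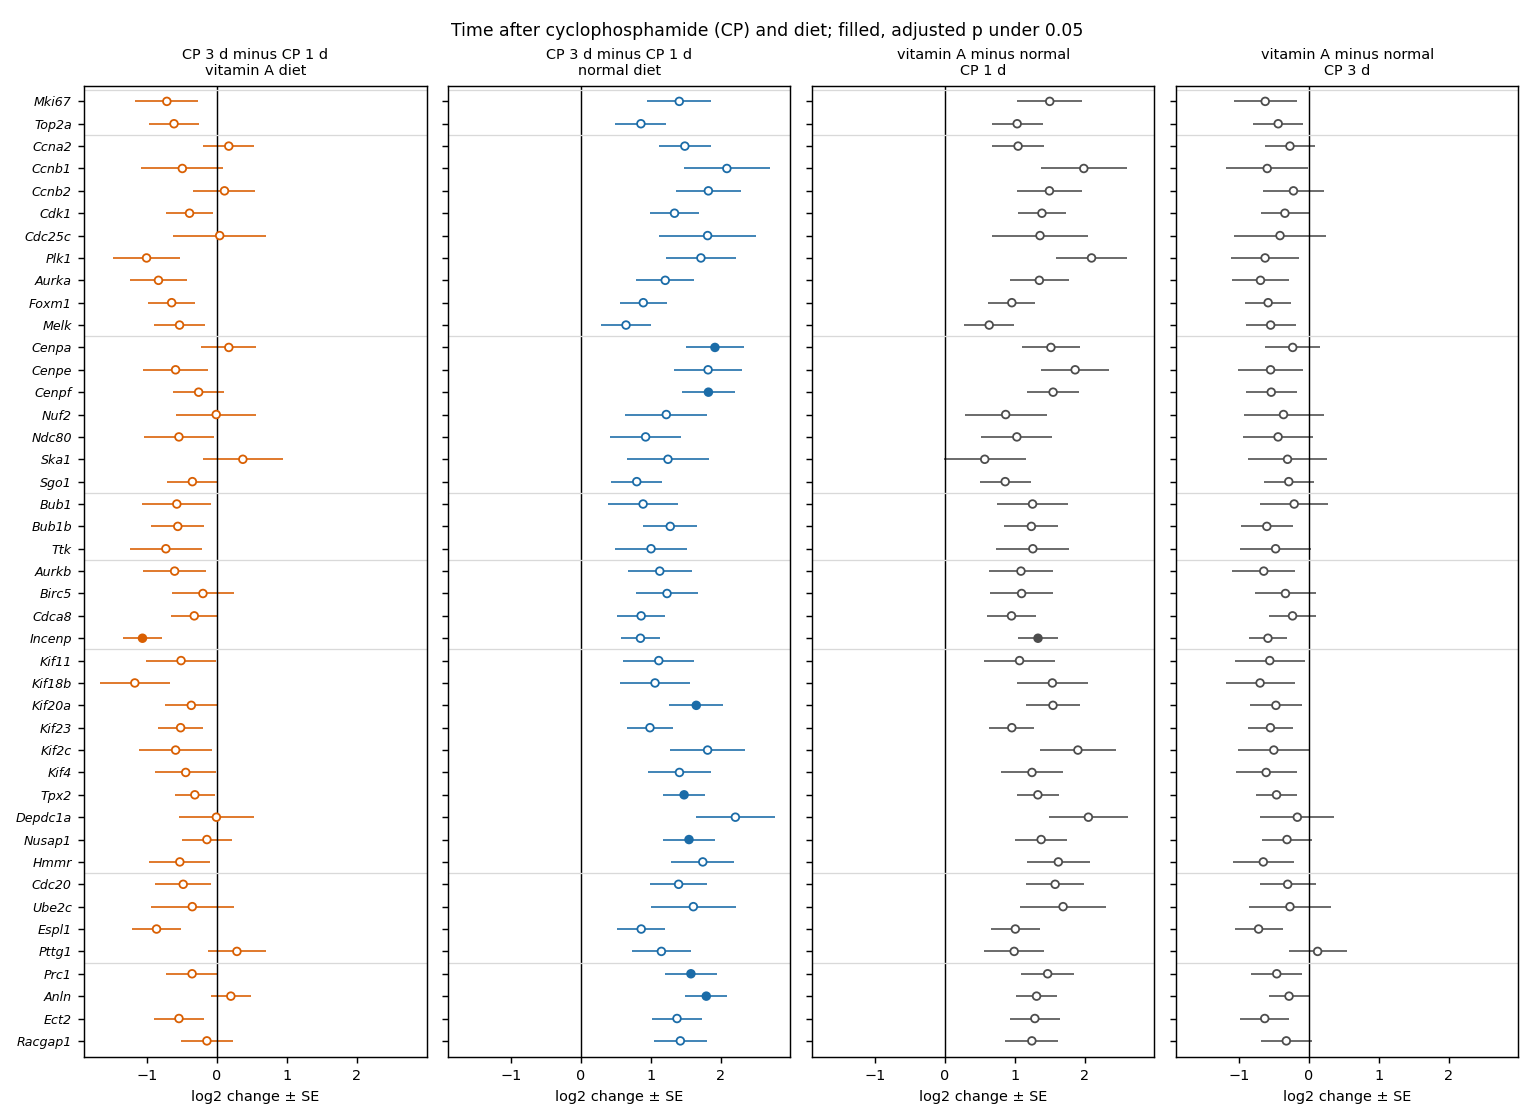
Log2 change (edgeR, ± SE) of each gene for 3 days minus 1 day after CP on each diet and for vitamin A minus normal diet at each time, with filled points past an adjusted p of 0.05. The normal-diet time panel and the 1-day diet panel lie above 0 throughout, and the 3-day diet panel lies below 0 for every gene but Pttg1.

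The change of the diet effect itself was tested as an interaction. For diet by CP at 1 day none of the 43 genes passed and none of the 19323 genes did (0% higher and 0% lower), with 13 members and 1505 of all genes at an unadjusted p under 0.05 and 1 member and 116 genes by DESeq2. The median was 1.00, against -0.02 over all genes, with 40 above 0, from -1.39 (SE 1.2, adjusted p = 0.861) for Ska1 to 2.58 (SE 1.14, adjusted p = 0.600) for Depdc1a. Tpx2 had 2.10 (SE 0.44, adjusted p = 0.117), Plk1 2.25 (SE 0.77, adjusted p = 0.428) and Mki67 0.49 (SE 0.71, adjusted p = 0.940).

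For diet by time after CP, which asks whether the change between 1 and 3 days differed between diets, none of the 43 passed and no gene of the table did (0% higher and 0% lower). At an unadjusted p under 0.05 there were 37 members and 1732 of all genes, and DESeq2 called 6 members and 78 genes. All 43 interaction values were below 0, with a median of -1.73, against 0.01 over all genes. They ran from -2.72 (SE 0.69, adjusted p = 0.309) for Plk1 to -0.86 (SE 0.59, adjusted p = 0.723) for Pttg1. Incenp had -1.91 (SE 0.39, adjusted p = 0.174), Mki67 -2.12 (SE 0.64, adjusted p = 0.328) and Ccnb1 -2.58 (SE 0.84, adjusted p = 0.360). This contrast uses the same 12 CP libraries as the diet and time comparisons above, so their shared direction adds no evidence.

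Each of the authors' deposited tables lists only features with an unadjusted p under 0.05. For 1 day after CP 34 of the 43 genes were listed, all 34 higher on the vitamin A diet, and 16 had an adjusted p under 0.05. Of all features 2219 were listed and 377 had an adjusted p under 0.05, so 377 of 2219 is a share of the listed features only. The authors' table for 1 day gave Mki67 a log2 ratio of 1.49 (adjusted p = 7.07e-06), Incenp 1.33 (adjusted p = 2.35e-05) and Cdk1 1.39 (adjusted p = 0.000327). The authors' deposited table gave Plk1 2.10 (adjusted p = 0.157) and Ccnb1 1.99 (adjusted p = 0.440) there. For 3 days after CP the authors' deposited table listed 13 of the 43 among 693 features. All 13 were lower on the vitamin A diet, with 0 at an adjusted p under 0.05, against 5 of all features. For saline mice the authors' deposited table listed Mki67 and Tpx2 among 2063 features, with 0 of these genes at an adjusted p under 0.05, against 231 of all features.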

How the data were processed

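Counts per gene for 18 bladder libraries were used as deposited. The deposited FPKM table gives counts per gene length and library total and was used for the order of levels between genes. The authors' comparison tables hold log2 ratios (normal over vitamin A, printed with the sign turned), p-values before and after adjustment and each group's normalised signal, and list features with an unadjusted p under 0.05 only. The submitters' processing notes name DESeq2 1.20.0, featureCounts 1.5.0-p3, HISAT2 2.0.5 and the build GRCm39, with no roles, and the strand setting was not given in the sources used here. Of the 43 genes 14 overlap another named gene and 9 a protein-coding one (Ccna2, Cdc20, Aurka, Kif20a, Kif4, Prc1, Anln, Nusap1 and Foxm1), and their counts are uncertain to that extent.

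Unnamed features, 0.474% to 0.810% of counts, were left out. Tests were run with edgeR 4.0.16 in R 4.3.3 (robust quasi-likelihood test, TMM scaling, filterByExpr, 1 mean per group over 18 libraries, 12 residual degrees of freedom, 11 contrasts, 2-sided, Benjamini-Hochberg per contrast), and the procedure was tested on simulated data. CPM is counts per 1000000 after TMM scaling. Values in every library are given for 12 chosen genes and for those with the highest or lowest change in a contrast, and every gene past the threshold is named where 5 or fewer are. The 7 that rose on the normal diet between 1 and 3 days were added after their values were seen. The members and lists were chosen with earlier results of these data known. DESeq2 1.42.0, DESeq2 size factors in edgeR, no filter on low counts, a replicate block, only the groups compared, no robust estimation, unnamed features kept, leaving out each library and leaving out a pair of libraries were the alternatives. With 3 mice a group, an exact permutation test of single genes could not reach the threshold and was not used.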

Additional observations from a re-analysis of the deposited data

How the results depend on the processing

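The counts of genes past the threshold for CP against saline stayed between 38 and 43 on both diets and at both times in all 26 alternatives, in 1 direction. Counts between 3 days and 1 day after CP and between diets rested on few calls and moved with the method. For 3 days minus 1 day on the vitamin A diet the count of 1 became 0 with no filter on low counts, 0 with only the groups compared, 0 without both replicate 3 of vitamin A CP 1 day and replicate 2 of vitamin A CP 3 days, and 0 to 2 with 1 library left out. Over all genes the 819 calls there became 775, 17, 237 and 316 to 1335 in the same order. On the normal diet the count of 7 became 17 with DESeq2, 2 with no filter and 16 with only the groups compared, and 1 to 21 with 1 library left out. It stayed at 7 without that pair of libraries. Over all genes the 278 calls became 646, 290, 708 and 70 to 395 in the same order, and 500 without the pair. For vitamin A minus normal diet at 1 day the count of 1 became 2 with DESeq2 size factors, 17 with DESeq2, 0 with no filter, 0 with only the groups compared, 4 without that pair of libraries, and 0 to 16 with 1 library left out. Over all genes the 90 calls there became 86, 483, 129, 2, 60 and 0 to 305 in the same order. The adjusted p of Incenp there ranged from 0.000752 to 0.222 over the alternatives. Without that pair of libraries 0 members passed for diet by CP, diet by time, and the diets in saline mice and at 3 days. Over all genes those counts were 10, 0, 2 and 0. DESeq2 called 1 gene for diet by CP and 6 for diet by time, where edgeR called 0, and 1 library left out gave 0 to 1 for diet by time. The cause of these differences was not tested. Fits on only the groups compared have fewer residual degrees of freedom, and their counts moved both down and up.

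Replicate numbers were shared between groups but did not pair the mice, since correlations of same-numbered deviations ran from -0.120 to 0.197. With the replicate block the counts were 42, 42, 42, 42 for CP against saline, 1 and 5 for 3 days minus 1 day and 0 for the diets at 1 day. Over all genes they were 3527 and 2084 at 1 day and 1050 and 1770 at 3 days against saline (vitamin A and normal diet). They were 711 and 249 for 3 days minus 1 day, and 70 for the diets at 1 day. The log2 change had another sign under at least 1 alternative for 21 of 43 genes for 3 days minus 1 day on the vitamin A diet, 21 between diets in saline mice, 6 between diets at 3 days, 9 for diet by CP and 1, Kif23, at 1 day on the normal diet, and for none in the other 6 contrasts. Of the 104 gene results recomputed for the naming rule, 3 changed sign. Kif23 at 1 day on the normal diet ranged from -0.17 (without normal-diet CP 1 day replicate 2) to 0.39 (without replicate 3) with 1 library left out. Ska1 for 3 days minus 1 day on the vitamin A diet was -0.073 without that pair of libraries. Pttg1 between diets at 3 days ranged from -0.22 (without vitamin A replicate 2) to 0.42 (without vitamin A replicate 1), was -0.05 without normal-diet replicate 2, and was -0.22 without that pair of libraries. For all genes tested, DESeq2 called 1663 against 819 for 3 days minus 1 day on the vitamin A diet, 646 against 278 on the normal diet and 483 against 90 between diets at 1 day. Cdc25c, Ska1, Depdc1a and Ube2c had few counts in saline mice, which limits the precision of their ratios.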

Other observations

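Regulators outside the list were taken from a list of 26 cell cycle regulators. Of these 16 rose and 1 fell at 1 day on the vitamin A diet, and 8 and 1 on the normal diet, while 5 and 10 rose at 3 days. E2f1, an activator of S phase genes, rose by 2.50 and 2.23 on the vitamin A diet and by 2.22 and 2.45 on the normal diet at 1 and 3 days. E2f8, an atypical E2F that represses, rose by 5.36 and 4.16 on the vitamin A diet and by 5.18 and 5.43 on the normal diet, the highest of the list in each comparison with saline. Mybl2, which encodes B-MYB, was at 8.84 ± 0.436 CPM and 7.77 ± 2.15 CPM at 1 day after CP, against 3.37 ± 0.338 CPM and 4.44 ± 0.511 CPM in saline mice (vitamin A and normal diet, SD, n = 3). Its log2 change was 1.39 (adjusted p = 0.00250) on the vitamin A diet and 0.80 (adjusted p = 0.0822) on the normal diet by edgeR's quasi-likelihood test. Rbl2, which encodes p130 of the repressive DREAM complex in resting cells, had the lowest change of the list in each comparison with saline, -0.76 and -0.63 on the vitamin A diet and -0.72 and -0.67 on the normal diet, with adjusted p of 0.00365, 0.0300, 0.00901 and 0.0154.

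Chek1, the replication checkpoint kinase gene, had the highest change of the genes that restrain G2 at 1 day, 2.88 and 2.36 (vitamin A and normal diet), and Cdkn1c, which encodes the CDK inhibitor p57, the lowest, -1.69 and -1.22, with adjusted p of 0.00296 and 0.0336.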
